A study of Mus musculus with 10 samples.

Results

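The 10 Eph receptor genes *Epha3*, *Epha4*, *Epha5*, *Epha7*, *Epha8*, *Ephb1*, *Ephb2*, *Ephb3*, *Ephb4* and *Ephb6* were compared between wild-type and *Lmx1a*-/- cortical hem (CH) at e13.5. They were chosen by gene symbol, from 52227 genes in the count table, and each has 1 row there. The 4 other Eph receptor genes (*Epha1*, *Epha2*, *Epha6* and *Epha10*) are given more briefly. RNA came from the CH of 5 wild-type and 5 *Lmx1a*-/- embryos, collected from brain sections by laser capture, with the sections of each embryo pooled into 1 library. The *Lmx1a*-/- embryos are homozygous for the *dreherJ* allele, a point mutation that inactivates the Lmx1a transcription factor while RNA and protein are still made. All embryos had the mixed C57Bl6, FVB and CD1 background, and both sexes were used. The question was which transcripts of this signaling center depend on *Lmx1a*.

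Eph receptors are receptor tyrosine kinases that bind ephrins, ligands that are themselves attached to the surface of neighboring cells. EphA receptors mostly bind the GPI-anchored ephrin-A ligands and EphB receptors the transmembrane ephrin-B ligands, and contact between the cells can signal into both of them. In the developing brain they are known for repulsive axon guidance, for sorting cells at tissue boundaries and for guiding migration. The CH is a signaling center at the medial edge of the cortex, between the choroid plexus and the hippocampal primordium, and a source of Cajal-Retzius cells.

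No Eph receptor passed the test, an FDR under 0.1 in edgeR's quasi-likelihood test over 21664 genes. Of the 10, 0 were called lower and 0 higher, beside 2.29% of all genes tested called lower, 1.72% called higher and 4.02% called in either direction. At an unadjusted p under 0.05 there were 4 of 10, beside 16.4% of all genes. These were *Ephb6* and *Ephb4*, with lower means in *Lmx1a*-/- CH, and *Epha5* and *Epha4*, with higher means. The likelihood ratio test of edgeR called 1 receptor (*Epha5*, higher), beside 6.28% of all genes, and DESeq2 called 1 (*Ephb6*, lower), beside 9.89%. Of the 10 receptors 7 had lower and 3 had higher means in *Lmx1a*-/- CH, and the median log2 fold change was -0.09, beside -0.0049 over all genes. In bulk RNA, fewer cells of a type and less RNA per cell cannot be told apart.

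The libraries held between 19145952 and 36462780 counts on genes. *Lmx1a* RNA was present in all of them, at 45.6 to 90.8 normalized CPM in wild-type and 89.9 to 145 in *Lmx1a*-/- embryos. It was called higher in *Lmx1a*-/- CH (log2 fold change 0.68, SE 0.17, FDR 0.0658 in edgeR's quasi-likelihood test). This allele still makes RNA and the ranges touch, so the *Lmx1a* level does not check the genotype labels. *Xist*, transcribed from the inactive X chromosome, stood at a log2 CPM of 12.1 to 12.34 in wild-type embryos 2 to 5. In wild-type embryo 1 and all 5 *Lmx1a*-/- embryos it was at most 0.29, so genotype and sex cannot be told apart except through wild-type embryo 1. Wild-type embryo 3 stood apart from the other wild-type embryos. Its 12 choroid plexus marker genes summed to 165 CPM, against 350 to 535 in the other wild-type embryos and 170 to 261 in the *Lmx1a*-/- embryos. Its CH marker genes had the lowest sum, 2277 CPM, against 3092 to 4318 in the other wild-type and 2656 to 3710 in the *Lmx1a*-/- embryos. Its mesenchymal and meningeal markers had the highest sum, 958.5 CPM, against 365 to 680 in the other wild-type and 270 to 545 in the *Lmx1a*-/- embryos. Results that rest on this embryo are given with and without it.

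The stretches upstream of *Epha5* and *Ephb6* are shown because these 2 receptors had the smallest p-values, in opposite directions. They come from RefSeq promoter windows (build GRCm38.p6), without bases inside the annotated gene, and are written 5′ to 3′ along the gene. *Epha5* spans 84054761 to 84417382 of chromosome 5, with 19 merged exons in GENCODE M21 of GRCm38, and *Ephb6* spans 41605482 to 41620509 of chromosome 6, with 18. The *Epha5* stretch is chr5:84417383-84417632 on the minus strand and the *Ephb6* stretch is chr6:41605261-41605481 on the plus strand. Capitals mark the letters TAATTA, a core that homeodomain proteins of the Lmx1a kind can bind and that reads the same on both strands.
*Epha5*: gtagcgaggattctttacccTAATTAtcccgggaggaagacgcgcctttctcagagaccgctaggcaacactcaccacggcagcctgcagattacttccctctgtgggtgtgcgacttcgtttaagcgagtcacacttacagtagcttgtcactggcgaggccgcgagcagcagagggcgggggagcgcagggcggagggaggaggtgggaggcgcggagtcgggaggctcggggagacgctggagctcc
*Ephb6*: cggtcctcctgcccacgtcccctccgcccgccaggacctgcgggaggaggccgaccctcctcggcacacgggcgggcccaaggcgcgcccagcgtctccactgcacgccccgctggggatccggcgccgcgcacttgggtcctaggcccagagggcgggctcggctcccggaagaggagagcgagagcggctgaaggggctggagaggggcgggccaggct
The *Epha5* stretch held 1 match, which ends 224 bases before the gene, and the *Ephb6* stretch held none. RefSeq gives 11 windows of 300 bases for the 10 receptors, *Epha7* having 2, and the *Epha5* window was the 1 with the letters. Over all genes, 5.29% of 32851 such windows held them. The receptor windows were rich in G and C, with a median of 66.3% against 52.7% over all windows, and held a median of 24 CpG dinucleotides against 7. A match is a description of the letters, and binding was not measured.

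Per kilobase of exon, *Epha4* had the highest level of the 10 receptors in both genotypes. *Epha4* is unusual among EphA receptors in binding ephrins of both classes. Its level per length (normalized CPM per kilobase of exon) was 62.1 ± 2.6 in wild-type and 69.7 ± 5.78 in *Lmx1a*-/- CH (mean ± SD, n = 5). *Epha7*, which is known for topographic axon maps and cortical progenitors, came next at 22.3 ± 2.91 and 21.9 ± 3.07. In both genotypes these 2 receptors did not overlap with each other or with the next in order, in any of the 5 embryos. *Ephb2*, a receptor of commissural and hippocampal axons, was the third in wild-type CH at 11.7 ± 1.18 per kilobase and the fourth in *Lmx1a*-/- CH, after *Ephb1*, at 10.8 ± 0.724.

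In the middle of the order the ranges of neighboring receptors overlapped, although *Epha5* was above *Epha3* in each of the 5 *Lmx1a*-/- embryos. In wild-type CH the levels per length were 9.19 ± 3.33 for *Ephb1*, 7.32 ± 2.82 for *Epha3*, 6.32 ± 2.85 for *Epha5*, 5.43 ± 0.821 for *Ephb4* and 4.6 ± 1.1 for *Ephb3*, and each neighbor in the order from *Ephb2* to *Ephb3* overlapped with the next. In *Lmx1a*-/- CH they were 12.7 ± 2.73 for *Ephb1*, 10.1 ± 1.42 for *Epha5*, 5.25 ± 2.48 for *Epha3*, 4.39 ± 0.743 for *Ephb3* and 4.32 ± 0.414 for *Ephb4*, again with overlap between neighbors from *Ephb1* to *Ephb4*. At the bottom, *Ephb6* at 1.87 ± 0.417 and 1.16 ± 0.264 and *Epha8* at 0.468 ± 0.206 and 0.271 ± 0.119 stood apart from the receptors above them and from each other. The highest mean was 133 times the lowest in wild-type CH and 257 times in *Lmx1a*-/- CH.

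The summed level per length of the 10 receptors ranged from 117 to 137 in wild-type and from 124 to 150 in *Lmx1a*-/- embryos. EphA receptors made up 75.1% ± 1.84 of this sum in wild-type CH and 76.3% ± 2.16 in *Lmx1a*-/- CH. *Epha4* alone made up 43.6% to 52% in wild-type and 48.3% to 53.5% in *Lmx1a*-/- embryos. The share of *Epha5* was 4.77% ± 1.97 in wild-type and 7.15% ± 0.556 in *Lmx1a*-/- CH, with wild-type embryo 3 at 8.11%.

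**Figure D1:**
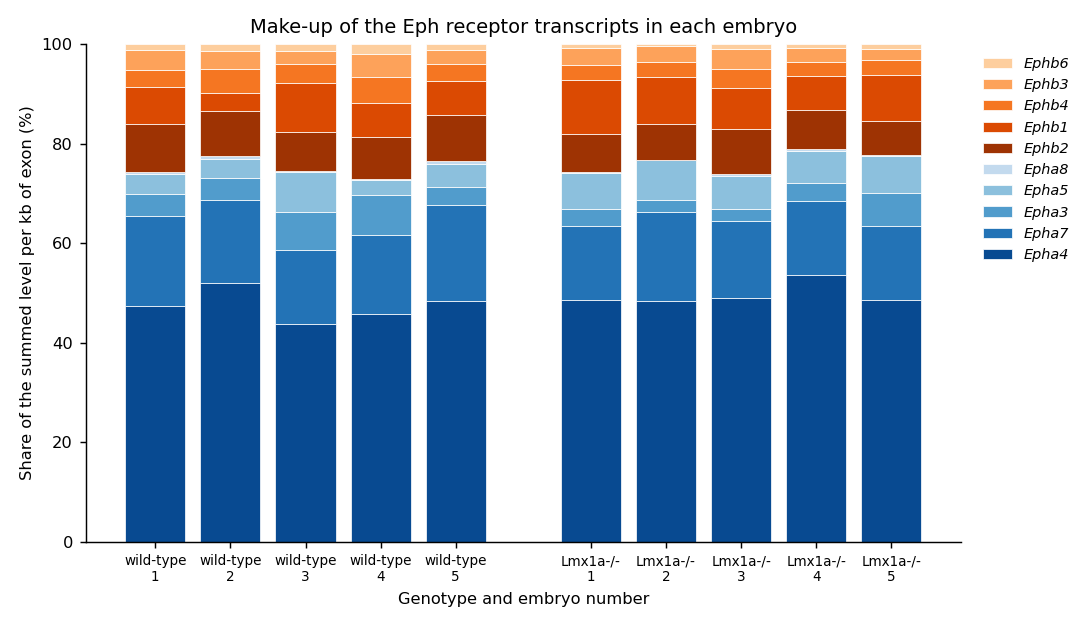
Each bar is 1 embryo and shows the percentage of the summed level per kilobase of exon that each Eph receptor took, EphA receptors in blue below and EphB receptors in orange above. *Epha4* took 43.6% to 53.5% in every embryo, and the EphA receptors together 72.9% to 78.8%.

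*Epha5*, an EphA receptor known for topographic axon maps, had the largest positive difference among the 10. In wild-type embryos 1 to 5 it stood at 92.8, 73.8, 186, 67.5 and 109 normalized CPM, and in *Lmx1a*-/- embryos 1 to 5 at 182, 200, 138, 154 and 170. All *Lmx1a*-/- embryos were above wild-type embryos 1, 2, 4 and 5, but wild-type embryo 3 was above 4 of them, so the genotypes overlapped. The means were 106 ± 47.7 and 169 ± 23.8 CPM (SD, n = 5), a log2 fold change of 0.67 (SE 0.23, 95% interval 0.18 to 1.16). With an FDR of 0.158 in edgeR's quasi-likelihood test, *Epha5* missed the threshold. Its FDR was 0.0787 in the likelihood ratio test and 0.143 in DESeq2.

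The call on *Epha5* turned on wild-type embryo 3. Without this embryo the other wild-type embryos averaged 85.8 ± 18.8 CPM (n = 4), and the log2 fold change was 0.97 (SE 0.15) with an FDR of 0.00295 in edgeR's quasi-likelihood test. In the fit without it *Epha5* was the 1 receptor called, beside 4.67% of all genes. With any other embryo left out the receptor was not called. Wild-type embryo 1, the wild-type embryo with low *Xist*, was below every *Lmx1a*-/- embryo. With *Xist* as a covariate the log2 fold change was 0.80 (SE 0.46, FDR 0.617).

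The *Epha5* level was set beside marker genes of the neighboring tissues, embryo by embryo. The 9 marker genes of the cortical and hippocampal neuroepithelium, among them *Lhx2* and *Pax6*, summed to 537 to 860 CPM in wild-type embryos 1, 2, 4 and 5, to 1137 in wild-type embryo 3 and to 988 to 1342 in the *Lmx1a*-/- embryos. The 4 embryos with the lowest sums were also the 4 with the lowest *Epha5*. The genes of the list differed in wild-type embryo 3. *Sfrp1* stood at 311 CPM there, against 43.3 to 110 in the other wild-type embryos. *Lhx2*, *Pax6*, *Nr2e1*, *Emx1* and *Fezf2* were also highest in it among wild-type embryos. *Dmrt3*, *Hes5* and *Lef1* lay inside the range of the other wild-type embryos. Set against the *Lmx1a*-/- embryos, *Fezf2*, *Dmrt3* and *Hes5* stood at 105, 56.9 and 45.4 CPM in wild-type embryo 3, below every 1 of them. Of the 9 markers 0 were called lower and 3 higher (*Fezf2*, *Nr2e1* and *Dmrt3*, with log2 fold changes of 1.26, 1.09 and 0.48). Over all genes tested, 2.29% were called lower and 1.72% higher. The choroid plexus markers went the other way, with 3 of 11 tested called lower (*Car12*, *Ttr* and *Foxj1*, at -1.50, -3.42 and -0.88). With the mean of the choroid plexus markers as a covariate the log2 fold change of *Epha5* was -0.17 (SE 0.24, FDR 0.989), opposite in sign. This covariate ran from 3.82 to 4.24 log2 CPM in wild-type embryos 1, 2, 4 and 5. It was 1.97 to 3.02 in the *Lmx1a*-/- embryos and 2.86 in wild-type embryo 3. Apart from wild-type embryo 3 it separated the genotypes, so its part and that of genotype are hard to tell apart. The part of tissue composition in the *Epha5* difference was not tested.

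**Figure D2:**
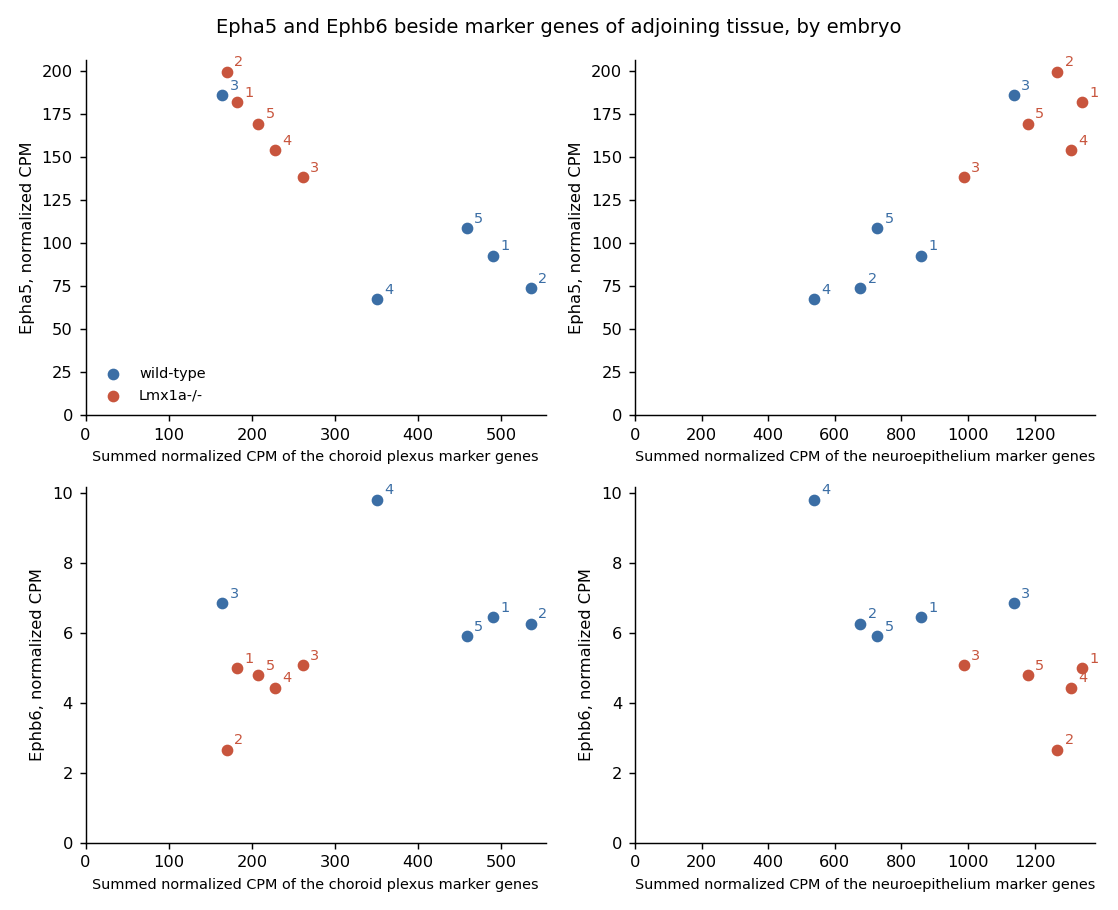
Normalized CPM of *Epha5* (top) and *Ephb6* (bottom) are plotted for each embryo against the summed CPM of choroid plexus marker genes (left) and of neuroepithelium marker genes (right), with embryo numbers beside the points. For *Epha5*, wild-type embryo 3 (186 CPM) lies among the *Lmx1a*-/- embryos in the right plot. In the left plot it lies beside them, with a choroid plexus sum of 165 against 170 to 261 CPM. For *Ephb6* it lies at the level of the wild-type embryos, at 6.85 CPM.

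*Epha4* varied least between wild-type embryos, with a coefficient of variation of 4.18%, and 8.29% in *Lmx1a*-/- CH. It stood at 513, 491, 482, 484 and 530 normalized CPM in wild-type embryos 1 to 5 and at 584, 585, 488, 606 and 544 in *Lmx1a*-/- embryos 1 to 5. *Lmx1a*-/- embryo 3 lay inside the wild-type range and the other 4 above it. The difference was 0.17 on the log2 scale (SE 0.07, 95% interval 0.02 to 0.32), with an FDR of 0.246 in edgeR's quasi-likelihood test. The upper bound of the interval is a 1.25-fold difference. With *Xist* as a covariate the log2 fold change of *Epha4* was 0.11 (SE 0.13, FDR 0.837). With the choroid plexus markers as one it was 0.09 (SE 0.13, FDR 0.989).

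*Epha7* stood at 242, 192, 203, 206 and 260 normalized CPM in wild-type embryos and at 218, 267, 187, 208 and 202 in *Lmx1a*-/- embryos. The ranges were nearly the same. Its log2 fold change was -0.03 (SE 0.11), and the 95% interval of -0.26 to 0.20 bounds a difference in either direction. The FDR was 0.932 in edgeR's quasi-likelihood test.

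*Epha3*, a receptor with high affinity for ephrin-A5, had the highest coefficient of variation within a genotype, 47.2% in *Lmx1a*-/- CH. In wild-type embryos 1 to 5 it stood at 50, 45.9, 89.7, 90.7 and 41.6 normalized CPM, and in *Lmx1a*-/- embryos 1 to 5 at 44.8, 32, 26.4, 43.5 and 81.6. Wild-type embryos 3 and 4 and *Lmx1a*-/- embryo 5 were about as high as each other, and the rest lay below. The log2 fold change of -0.48 (SE 0.30) had a 95% interval from -1.12 to 0.17 and an FDR of 0.469 in edgeR's quasi-likelihood test. Without *Lmx1a*-/- embryo 5 it was -0.79 (SE 0.26, FDR 0.196), and without any other single embryo it ranged from -0.60 to -0.32. With *Xist* as a covariate it was -0.03 (SE 0.52, FDR 0.991), and with the choroid plexus markers as one it was -0.96 (SE 0.49, FDR 0.961).

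*Epha8*, a receptor known from the midbrain, was the least abundant, at 9 to 78 counts per library. It stood at 2.46, 3.29, 1.29, 1.09 and 2.88 normalized CPM in wild-type embryos 1 to 5 and at 0.898, 0.489, 1.57, 1.77 and 1.67 in *Lmx1a*-/- embryos 1 to 5. Wild-type embryos 1, 2 and 5 were above all *Lmx1a*-/- embryos, and wild-type embryos 3 and 4 were within their range. On the log2 scale the difference was -0.77 (SE 0.42, 95% interval -1.67 to 0.12), with an FDR of 0.385 in edgeR's quasi-likelihood test. The interval includes 0 and reaches past a 2-fold lower level.

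*Ephb6*, an Eph receptor that lacks kinase activity, was the receptor whose genotypes did not overlap, beside 4.44% of all genes with no overlap. It stood at 6.46, 6.27, 6.85, 9.81 and 5.91 normalized CPM in wild-type embryos 1 to 5 and at 4.99, 2.66, 5.08, 4.43 and 4.8 in *Lmx1a*-/- embryos 1 to 5. Wild-type embryo 4 was high and *Lmx1a*-/- embryo 2 low for their genotypes. The means were 7.06 ± 1.57 and 4.39 ± 0.998 CPM (SD, n = 5), on 49 to 233 counts per library. The log2 fold change was -0.68 (SE 0.22, 95% interval -1.15 to -0.20), and the FDR of 0.139 in edgeR's quasi-likelihood test missed the threshold. DESeq2 gave an FDR of 0.0458 at a log2 fold change of -0.67.

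Wild-type embryo 3 did not set the *Ephb6* difference, which was -0.69 without it, and wild-type embryo 1, with low *Xist*, was above every *Lmx1a*-/- embryo. Without wild-type embryo 4 the log2 fold change was -0.54 and without *Lmx1a*-/- embryo 2 it was -0.55. It was -0.46 (SE 0.38) with *Xist* as a covariate and -0.41 (SE 0.38) with the choroid plexus markers as one, with FDRs of 0.747 and 0.982 in edgeR's quasi-likelihood test.

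*Ephb4*, the ephrin-B2 receptor of venous endothelium, stood at 21.4, 26.4, 24.5, 31.1 and 22.5 normalized CPM in wild-type embryos 1 to 5. In *Lmx1a*-/- embryos 1 to 5 it stood at 21.4, 21, 21.8, 17.5 and 18.5. Wild-type embryo 1, the wild-type embryo with low *Xist*, lay inside the *Lmx1a*-/- range. The other 4 wild-type embryos, with high *Xist*, lay above that range. The log2 fold change was -0.33 (SE 0.12, 95% interval -0.59 to -0.07) with an FDR of 0.193 in edgeR's quasi-likelihood test, and -0.10 (SE 0.21) with *Xist* as a covariate. Of 11 endothelial marker genes 0 were called in edgeR's quasi-likelihood test, and 1 had an unadjusted p under 0.05 (*Esam*, log2 fold change -1.14). Lower means in *Lmx1a*-/- CH were found for 9 of the 11, with a median log2 fold change of -0.36. Their sums of 26.7 to 93.6 CPM in wild-type and 24.1 to 64.9 CPM in *Lmx1a*-/- embryos overlapped. The part of endothelial cells in the *Ephb4* difference was not tested. *Ephb4* shares 33 bases of exon with *Zan* on the opposite strand, a gene with a median of 3.5 counts.

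*Ephb1*, a receptor of retinal axons that turn away from the midline, stood at 70.3, 29.8, 95, 62.8 and 63.8 normalized CPM in wild-type embryos 1 to 5. In *Lmx1a*-/- embryos 1 to 5 it stood at 114, 99.6, 71.4, 68.3 and 90.8. As for *Epha5*, wild-type embryo 3 was the highest wild-type embryo and lay within the *Lmx1a*-/- range. Its log2 fold change was 0.46 (SE 0.24, 95% interval -0.05 to 0.97) with an FDR of 0.355 in edgeR's quasi-likelihood test. Without wild-type embryo 3 it was 0.64 (SE 0.22, FDR 0.164), and without wild-type embryo 2, the lowest of the 10, it was 0.28 (SE 0.17, FDR 0.489). With *Xist* as a covariate it was 0.29 (SE 0.45, FDR 0.876), and with the choroid plexus markers as a covariate it was -0.22 (SE 0.34, FDR 0.99). *Ephb1* shares 152 bases of exon with a long noncoding RNA on the opposite strand, and the strand setting of the counting is not given in the sources used here.

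*Ephb2* and *Ephb3* act together in forebrain commissures. *Ephb2* stood at 165, 133, 135, 140 and 161 normalized CPM in wild-type embryos 1 to 5 and at 143, 135, 141, 140 and 121 in *Lmx1a*-/- embryos 1 to 5. *Ephb3* stood at 34.6, 27.4, 24, 41.4 and 25.4 normalized CPM in wild-type embryos 1 to 5 and at 32.3, 32.2, 33, 26.3 and 21.7 in *Lmx1a*-/- embryos 1 to 5. The genotypes overlapped for both. The log2 fold change of *Ephb2* was -0.11 (SE 0.08, 95% interval -0.29 to 0.07), and that of *Ephb3* was -0.07 (SE 0.16, 95% interval -0.42 to 0.29). Their FDRs were 0.546 and 0.886 in edgeR's quasi-likelihood test. With *Xist* as a covariate the 2 log2 fold changes were -0.29 (SE 0.14, FDR 0.547) and -0.28 (SE 0.29, FDR 0.803).

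**Figure D3:**
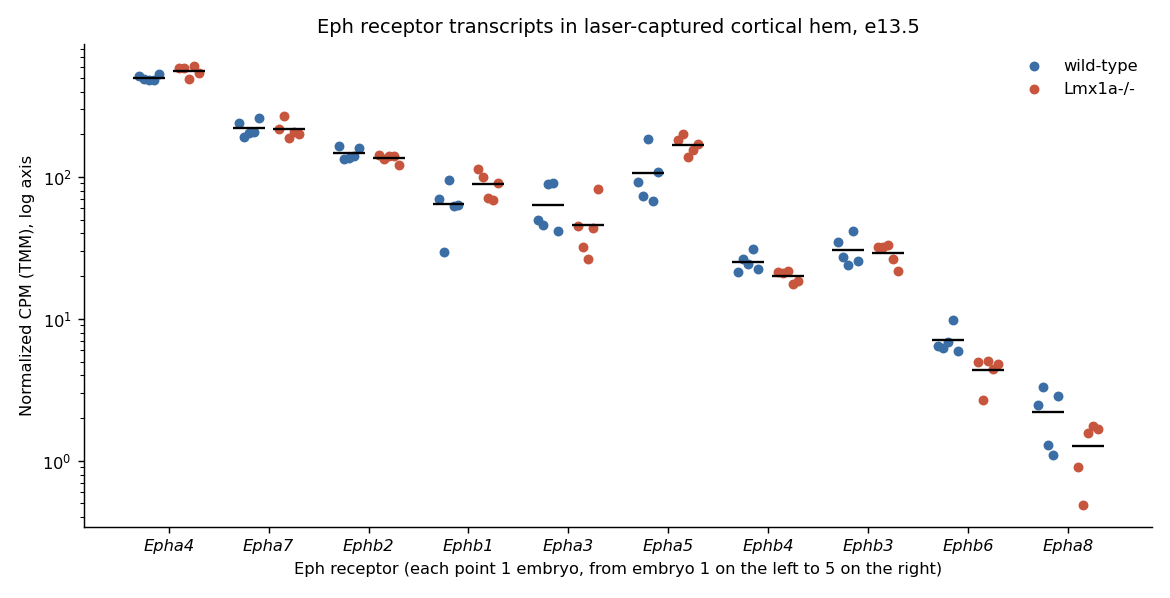
Each point is the normalized CPM of 1 embryo on a log axis, wild-type in blue and *Lmx1a*-/- in red, with black lines at the means and receptors ordered by their wild-type level per kilobase of exon. *Ephb6* is the receptor with no overlap between genotypes, and the third wild-type point of *Epha5* lies at 186 among the red points.

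The intervals show what the 5 embryos of each genotype could resolve. For 4 receptors (*Epha4*, *Epha7*, *Ephb2* and *Ephb3*) the 95% interval lay inside a 1.5-fold difference in both directions. For 6, these and *Ephb1* and *Ephb4*, it lay inside a 2-fold difference. For *Epha3*, *Epha5*, *Epha8* and *Ephb6* it reached beyond 2-fold in 1 direction. The interval included 0 for 6 of the 10.

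**Figure D4:**
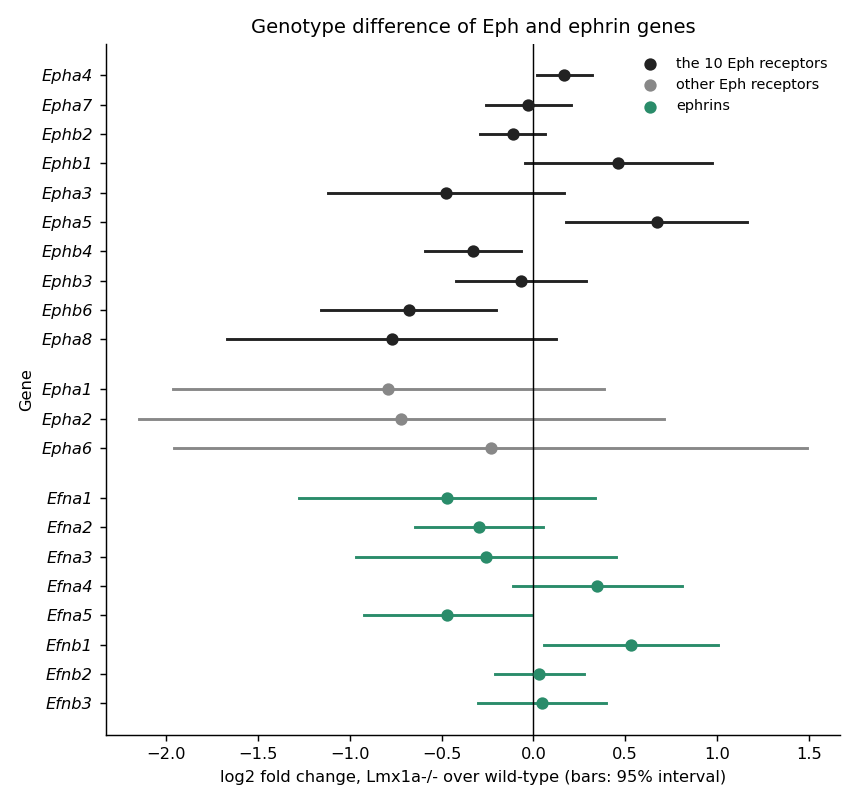
Points are log2 fold changes of *Lmx1a*-/- over wild-type CH and bars their 95% intervals, for the 10 receptors in order of wild-type level per length, the 3 other Eph receptors tested and the 8 ephrins. None of these genes passed the FDR of 0.1 in edgeR's quasi-likelihood test, and the intervals were narrowest for *Epha4* and *Ephb2*, with SEs of 0.07 and 0.08.

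The 4 other Eph receptors were low. *Epha1*, at 11 to 118 counts per library, had a level per length of 0.737 ± 0.522 in wild-type CH, in the range of *Epha8*, with overlap between their embryos. *Epha2* and *Epha6* had levels per length of 0.301 and 0.162, and *Epha10*, at 0 to 31 counts per library, was too low to test. In the 3 tested genes the log2 fold changes were -0.79, -0.72 and -0.23. Of these 3, 0 were called in edgeR's quasi-likelihood test and 0 had an unadjusted p under 0.05. *Epha1* shares 236 bases of exon with *Zyx* on the opposite strand, so its reads are uncertain.

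All 8 ephrins were transcribed in CH. The ephrin-B gene *Efnb2* had the highest level per length, at 20.9 ± 3.09 in wild-type and 21.4 ± 2.92 in *Lmx1a*-/- CH. Of the 8, 0 were called in edgeR's quasi-likelihood test, and 2 had an unadjusted p under 0.05, beside 16.4% of all genes. These were *Efnb1*, with a log2 fold change of 0.53 (SE 0.22, FDR 0.243), and *Efna5*, at -0.47 (SE 0.21, FDR 0.287). The other 6 had log2 fold changes of -0.47 (*Efna1*), -0.30 (*Efna2*), -0.26 (*Efna3*), 0.35 (*Efna4*), 0.03 (*Efnb2*) and 0.05 (*Efnb3*). The median over the ephrins was -0.11.

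Of 35 genes that act downstream of Eph receptors or process them, 2 were called lower, 2 were called higher and the others were not called. Over all genes tested, 2.29% were called lower and 1.72% higher. In the same test 15 of the 35 had an unadjusted p under 0.05, beside 16.4% of all genes. The median log2 fold change of the 35 was -0.02. *Kalrn*, a guanine nucleotide exchange factor that EphB receptors use in dendritic spines, rose from 191 ± 22.2 to 255 ± 4.85 CPM (log2 fold change 0.42, FDR 0.0155). *Ptpro*, a phosphatase that acts on Eph receptors, rose from 8.95 ± 2.32 to 15.3 ± 2.35 CPM (0.77, FDR 0.0572). *Src*, a kinase recruited by activated receptors, fell from 25.5 ± 3.06 to 18.3 ± 1.79 CPM (-0.48, FDR 0.053), and *Rhoa*, the GTPase of growth cone collapse, from 115 ± 7.36 to 92.2 ± 10.3 CPM (-0.32, FDR 0.077). All FDRs are from edgeR's quasi-likelihood test. These proteins serve many other receptors.

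The other tissues that laser capture could include were checked by their markers. In edgeR's quasi-likelihood test 2.29% of all genes were called lower and 1.72% higher, and 16.4% had an unadjusted p under 0.05. Of 10 CH markers 0 were called higher and 4 lower, led by *Lmo2*, *Wnt2b* and *Bmp7* at log2 fold changes of -2.37, -1.02 and -0.91. *Rspo3* and *Wnt8b* had higher means, at 0.40 and 0.11, and were not called. The sums of the 10 overlapped, at 2277 to 4318 CPM in wild-type and 2656 to 3710 in *Lmx1a*-/- embryos. None of the 10 was at 0 in any library. Of 9 tested Cajal-Retzius cell markers 3 were lower (*Trp73*, *Lhx1* and *Reln*, at -0.85, -1.36 and -1.06) and 1 higher (*Lhx5*). Of 10 mesenchymal and meningeal markers 3 were lower (*Pdgfra*, *Lum* and *Dcn*, at -0.81, -1.06 and -0.76). Among 10 neuronal, 8 microglial and 8 erythroid markers edgeR's quasi-likelihood test called 0, and 1, 1 and 5 had an unadjusted p under 0.05. All 5 erythroid ones were lower, and the median log2 fold change of the erythroid markers was -0.91. The sums of the 9 listed erythroid genes did not overlap, at 632 to 1473 CPM in wild-type and 267 to 573 in *Lmx1a*-/- embryos. The smallest p-values in the neuronal, microglial and erythroid lists were those of *Stmn2*, *Tyrobp* and *Hba-x*, at log2 fold changes of 0.90, 0.73 and -0.65.

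The genes whose pattern over the 10 libraries was most like that of *Epha5* were *Nlgn1*, *Rab30* and *Id4*. Their Pearson r of log2 CPM was 0.99, 0.97 and 0.96, and it was 0.97, 0.95 and 0.92 after the mean of each genotype was taken away. Most like *Ephb6* were *Frem1*, *S1pr3* and *Obsl1*, with r of 0.96, 0.94 and 0.94, and of 0.91, 0.92 and 0.86 without the genotype means. These genes are the highest of 21664 over few libraries that share depth and composition, so the r values are a description.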

How the data were processed

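CH of 5 wild-type and 5 *Lmx1a*-/- embryos was captured by laser, and RNA was sequenced with 1 library per embryo. Using Trimmomatic for trimming and STAR 2.7.1a for alignment to GRCm38, the authors counted reads per Ensembl gene with HTSeq 0.11.2 and deposited the counts without normalization. Of 52508 rows in the deposited table, 281 exact repeats were dropped. As in the study's methods, a gene entered the test with 10 or more counts in 3 or more libraries. It was compared with TMM scaling and the quasi-likelihood test of edgeR 4.0.16 (R 4.3.3, no covariate), with Benjamini-Hochberg adjustment over all genes. The study's methods name edgeR and not which of its tests. The fit was tested on simulated data.

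Normalized CPM are CPM values computed with TMM-scaled library sizes, and levels per length divide them by the kilobases of merged exons in GENCODE M21. The SE is the log2 fold change divided by the square root of F. Depth ran from 19145952 to 36462780 counts per library. Groups and embryo numbers come from the labels. Same-numbered embryos did not deviate together, so no block was used. Embryos are the replicates, and the p-values set the genotype difference against the spread between embryos. That difference cannot be told apart from sex except through wild-type embryo 1.

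The receptors and all gene lists were chosen with earlier results of these data known. A marker gene of the neuroepithelium list is not reported here. The genes named are the 10 receptors, *Lmx1a*, the other Eph receptors and ephrins, downstream genes past an FDR of 0.1, up to 3 markers per list with the smallest p and the 3 genes most like *Ephb6* and *Epha5*. Some further markers are named where a list is described. Alternatives were other tests (DESeq2 1.42.0), scaling, filters, thresholds, covariates, the embryo block, mitochondrial genes left out, coding length and each embryo left out. The newer dispersion route of edgeR (legacy = FALSE) was added after seeing the data.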

Additional observations from a re-analysis of the deposited data

Results flagged for a closer look

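Of 20 groups of 5 embryos (10 receptors in 2 genotypes), 2 held an embryo that stood apart from the rest by Dixon's criterion, which chance alone meets in about 1 of 20 groups. Both concern *Ephb6*. Wild-type embryo 4 stood at 9.81 normalized CPM, with the next embryo at 6.85, a gap of 0.758 of the whole range. *Lmx1a*-/- embryo 2 stood at 2.66 CPM, with the next at 4.43, a gap of 0.733 of the range. *Lmx1a*-/- embryo 2 had 49 counts of *Ephb6*, the lowest number of the 10 libraries, and the part of counting error was not tested. Each embryo lies on the far side from the other genotype, and without either of them the genotypes still do not overlap.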

How the results depend on the processing

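The count of receptors called lower stayed at 0 in 22 of 23 alternatives and was 1 with DESeq2 (*Ephb6*, FDR 0.0458). The count called higher stayed at 0 in 21 of 23 and was 1 with the likelihood ratio test (*Epha5*, FDR 0.0787). With each embryo left out in turn it ranged from 0 to 1, the 1 being *Epha5* without wild-type embryo 3. *Epha3*, *Epha4*, *Ephb2*, *Ephb4* and *Ephb6* kept their direction in all 22 alternatives with a fold change, although *Epha3* ranged from -0.96 to -0.03. With the choroid plexus markers as a covariate, 4 receptors changed sign, to log2 fold changes of -0.17 (*Epha5*), 0.39 (*Epha8*), -0.22 (*Ephb1*) and 0.13 (*Ephb3*), and all genes called went from 497 lower and 373 higher to 6 and 3. With *Xist* as a covariate they were 26 and 1. At an unadjusted p under 0.05 in edgeR's quasi-likelihood test, 0 receptors were lower and 0 higher with either covariate. The choroid plexus covariate separated the genotypes apart from wild-type embryo 3, and *Xist* did so apart from wild-type embryo 1. With each embryo left out, *Epha7* ranged from -0.12 to 0.034 and *Ephb3* from -0.15 to 0.061, both changing sign, and all genes called ranged from 261 to 604 lower and from 190 to 455 higher. The likelihood ratio test called 805 lower and 555 higher, and DESeq2 976 and 790. The causes of these changes were not tested.

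With the embryo number as a replicate block, 0 receptors were called lower and 0 higher, and all genes called were 353 and 248. The correlation of deviations of same-numbered embryos ran from -0.099 to 0.013, and no embryo correlated best with its own number, so the numbers do not pair the embryos. Coding length in place of exon length moved all 20 mean levels per length by more than 1 SD, and raised *Epha5* from the sixth to the fourth place in wild-type CH, while library size alone as the scaling moved none. Counts were lowest for *Epha8*, at 9 to 78 per library, and *Ephb6*, at 49 to 233, and the part of counting error in their spread was not tested.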
